A study of Mus musculus with 12 samples.

Results

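The 7 genes described here are outputs and repressors of the circadian clock: Dbp, Tef and Hlf, Nfil3, Ciart, and Bhlhe40 and Bhlhe41. They were chosen by symbol, as rows of the array table annotated with exactly 1 of these symbols, and a gene with several rows is represented by its brightest one, judged by the mean of the 12 arrays. All 7 were found among the 19937 genes tested. The RNA came from white adipose tissue of male mice aged 18 weeks, kept under a cycle of 12 hours of light and 12 of dark, and was read on 12 one-colour Affymetrix arrays in 4 groups of 3. WT chow were wild-type mice on regular chow, KO chow were Ahnak knockout mice on regular chow, and WT HFD and KO HFD were the same 2 genotypes after 12 weeks on a high fat diet (HFD; 60% fat, with 20% each of protein and carbohydrate). Ahnak encodes a very large scaffold protein. The labels name neither the fat depot, the hour of collection, the strain nor how the knockout was made, and they number the replicates without tying each to an animal of its own; p-values therefore reflect the scatter of these samples, which may be technical.

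In the mammalian clock, CLOCK and ARNTL (BMAL1) bind E-box sequences and switch on the genes of their own repressors, the PER and CRY proteins, and of output factors. DBP, TEF and HLF are the PAR bZIP proteins, activators that bind D-box sequences, and NFIL3 (E4BP4) is a bZIP repressor of the same sequences whose RNA usually peaks when theirs is low. CIART (CHRONO) and the bHLH proteins BHLHE40 (DEC1) and BHLHE41 (DEC2) repress CLOCK and ARNTL at E-boxes and are themselves E-box targets. All of these RNAs rise and fall through the day in many tissues, fat included, so a level measured at an unstated hour is 1 point on a daily curve.

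The promoters of the members were read from RefSeq sequence of mouse build GRCm38.p6, as the 250 bases that precede each annotated transcription start. A promoter was found for 6 of the 7 members, 7 promoters in all, since Tef has 2 starts. Those of the members that hold the E-box CACGTG are shown first, 5′ to 3′ on the gene's strand in lower case, with each E-box in capitals. Ciart lies at chr3:95882229-95882478 on the minus strand, the Tef starts at chr15:81802423-81802672 and chr15:81811164-81811413 on the plus strand, and Bhlhe41 at chr6:145865421-145865670 on the minus strand. Dbp (chr7:45704997-45705246, plus strand) and Hlf (chr11:90390918-90391167, minus strand) follow, because their RNA moved with that of Tef and Ciart while their windows hold no such run of letters.
Ciart: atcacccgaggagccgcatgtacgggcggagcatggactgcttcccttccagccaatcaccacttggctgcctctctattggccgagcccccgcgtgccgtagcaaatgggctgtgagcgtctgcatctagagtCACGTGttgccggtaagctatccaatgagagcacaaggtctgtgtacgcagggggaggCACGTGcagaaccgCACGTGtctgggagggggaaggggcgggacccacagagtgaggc
Tef, start 1: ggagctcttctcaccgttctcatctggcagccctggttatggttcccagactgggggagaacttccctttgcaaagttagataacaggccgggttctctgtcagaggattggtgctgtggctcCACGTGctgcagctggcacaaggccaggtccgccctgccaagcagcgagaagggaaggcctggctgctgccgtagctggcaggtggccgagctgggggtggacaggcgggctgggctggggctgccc
Tef, start 2: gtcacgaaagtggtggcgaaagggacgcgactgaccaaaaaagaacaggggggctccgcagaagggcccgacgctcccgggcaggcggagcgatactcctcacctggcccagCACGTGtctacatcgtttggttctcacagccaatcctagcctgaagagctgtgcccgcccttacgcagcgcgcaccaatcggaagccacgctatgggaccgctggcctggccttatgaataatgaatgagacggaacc
Bhlhe41: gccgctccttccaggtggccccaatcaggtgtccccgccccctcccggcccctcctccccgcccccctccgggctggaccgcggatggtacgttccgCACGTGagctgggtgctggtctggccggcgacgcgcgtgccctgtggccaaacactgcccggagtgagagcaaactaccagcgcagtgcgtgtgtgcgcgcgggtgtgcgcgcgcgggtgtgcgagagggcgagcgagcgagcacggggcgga
Dbp: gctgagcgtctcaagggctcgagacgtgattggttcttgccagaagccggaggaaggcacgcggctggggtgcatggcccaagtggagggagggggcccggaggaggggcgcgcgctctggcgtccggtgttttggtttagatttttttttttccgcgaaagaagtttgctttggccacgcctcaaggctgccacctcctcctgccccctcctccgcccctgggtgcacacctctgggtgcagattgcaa
Hlf: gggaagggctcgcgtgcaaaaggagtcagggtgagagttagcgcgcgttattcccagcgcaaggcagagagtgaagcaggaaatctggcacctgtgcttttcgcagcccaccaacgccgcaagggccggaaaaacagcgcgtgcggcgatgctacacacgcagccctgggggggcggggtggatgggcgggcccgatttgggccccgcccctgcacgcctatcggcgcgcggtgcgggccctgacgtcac

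Ciart had 3 E-boxes, which began 116, 58 and 44 bases before its start. Only 0.0609% of 32851 mouse promoters of this length held 3 or more, 20 in number, and 6.02% held at least 1; CACGTG is its own reverse complement, so 1 search covered both strands. Each Tef start had 1, beginning 127 and 138 bases before it, and Bhlhe41 had 1 at 153 bases. Nfil3 had no E-box and 1 ROR half-site, AGGTCA on either strand, 12 bases before its start at chr13:52981040-52981289 on the minus strand; 14.02% of all promoters held that motif. The D-box core TTATGNAA, searched on both strands, was in 0 of the 7 promoters and in 3.07% of all. With 1 mismatch allowed it was in both Tef windows and in 41.8% of all promoters. A match is only a match of letters, and these windows leave out distal sites and introns.

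**Figure D1:**
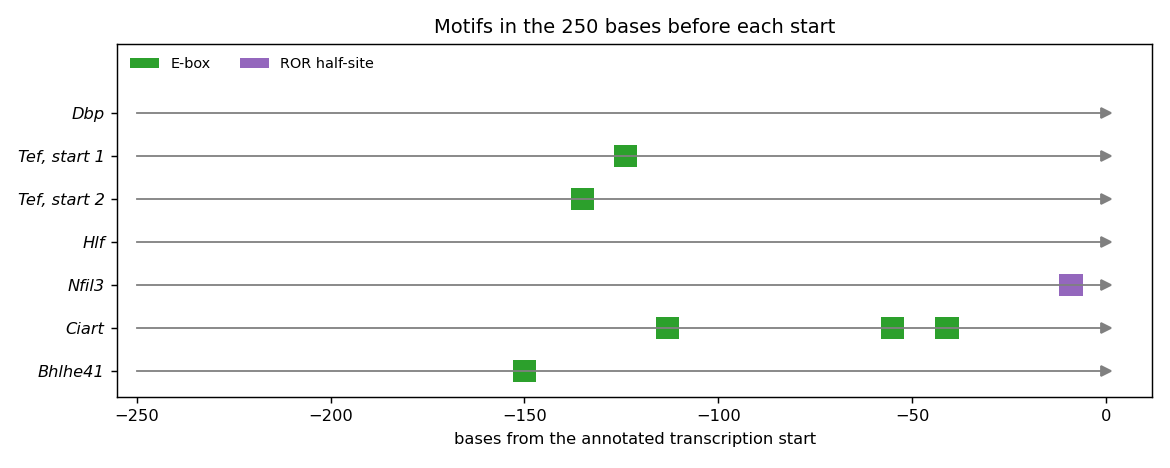
Positions of the E-box CACGTG (green) and the ROR half-site AGGTCA (purple) in the 250 bases before each annotated start of 6 members; the x axis is the distance in bases from the start, and each line is 1 promoter. The 3 E-boxes of Ciart lie within 116 bases of its start, and the lines of Dbp and Hlf are empty.

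Several facts about the arrays bear on every value below. Ahnak, the targeted gene, was lower on each KO array (9.27 to 9.58) than on each WT array (9.68 to 10.3), with differences of -0.69 ± 0.13 on chow (log2, limma adjusted p = 0.38) and -0.52 ± 0.13 on HFD (adjusted p = 0.021); whether its probes fall in the deleted part was not tested. Arrays of a group correlated across genes at r = 0.985 to 0.996, lowest within WT HFD. The 10 measured adipocyte markers averaged 12.4 to 12.6 on all arrays but those of WT HFD, where they averaged 12.4, 11.6 and 12.1 (replicates 1 to 3). The 14 macrophage markers averaged 9.97, 11.2 and 10.7 on those 3 arrays, and 8.79 to 9.37 on the other 9. The muscle markers averaged 5.92 to 6.47 and the male tract markers 4.27 to 4.52. In whole tissue, fewer cells of a type and less RNA per cell cannot be told apart.

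Ciart had 2 rows in the table. The row used has the higher mean, 6.96 against 6.44. The 20 rows numbered next to it that name a gene hold 19 genes of chromosome 10 and none of chromosome 3, where Ciart lies, whereas all 20 neighbours of the other row are genes of chromosome 3. Where the probes of either row align was not tested, so both rows are given. On the second row Ciart measured 6.40, 7.05 and 6.98 in WT chow, 7.57, 7.35 and 6.52 in KO chow, 5.70, 5.90 and 5.86 in WT HFD, and 5.92, 5.97 and 6.02 in KO HFD (log2 intensity, replicates 1 to 3). Both rows were lower on every HFD array than on every chow array. Statements on Ciart refer to the row used unless the second is named. For the other 6 members, 18 to 20 of the 20 neighbours named genes of the member's own chromosome.

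On the high fat diet Dbp, Tef, Hlf and Ciart were lower in wild-type fat than on chow. Dbp, Tef and Hlf each fell by more than 2-fold and Ciart by 2.71-fold or, on its second row, 1.99-fold; Nfil3 fell slightly, and the values of Bhlhe40 and Bhlhe41 overlapped between the diets. Of the 7 members 5 passed, all of them falls, in a comparison in which limma called 24.1% of all genes (11.8% higher and 12.3% lower; 2345 and 2457, and 3366 and 1527 with the arrays centred on their medians). The arrays of the 2 diets did not overlap for 5 members, as for 38.8% of all genes. The median change of the 7 members was -1.20, against -0.03 over all genes.

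Dbp, a PAR bZIP activator, measured 9.99, 10.10 and 9.92 on the WT chow arrays and 8.69, 8.52 and 8.71 on the WT HFD arrays (log2 intensity, replicates 1 to 3). The 2 sets stood well apart, each within 0.2 of its own middle value. Dbp fell by 1.36 ± 0.11 (log2 change ± SE of the fit, n = 3 a group; 2.57-fold; limma adjusted p = 0.00036), the third smallest p of the 19937 genes. Tef, the second activator, measured 9.49, 9.66 and 9.72 on chow and 8.50, 8.05 and 8.36 on HFD. Its lowest chow array lay almost 1 log2 unit above its highest HFD array, and the fall of 1.32 ± 0.11 (2.49-fold, adjusted p = 0.00037) had rank 6 by p. Hlf, the third, measured 7.63, 7.96 and 8.06 on chow against 6.87, 6.60 and 6.58 on HFD and fell by 1.20 ± 0.16 (2.30-fold, adjusted p = 0.00095). The 3 PAR bZIP genes thus fell by like amounts, with 95% intervals of -1.60 to -1.13, -1.57 to -1.07 and -1.54 to -0.86.

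Nfil3, the D-box repressor, fell as well. It measured 7.46, 7.41 and 7.31 in WT chow and 7.12, 7.0 and 7.17 in WT HFD, so the groups lay side by side without overlap. The fall of 0.29 ± 0.09 passed narrowly (adjusted p = 0.042). That call was lost when any 1 of the 6 arrays was left out (-0.33 to -0.25, adjusted p = 0.057 to 0.14), with the arrays centred on their medians (-0.20, adjusted p = 0.16), with a variance trend on intensity (adjusted p = 0.053) and with every row of the table tested (adjusted p = 0.068).

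Among the E-box repressors, Ciart measured 7.19, 7.64 and 7.62 on chow and 6.45, 5.75 and 5.93 on HFD. Its fall of 1.44 ± 0.23 (2.71-fold, adjusted p = 0.0022) was larger than those of the other members. The second Ciart row fell by 0.99 ± 0.24 (1.99-fold, adjusted p = 0.022 with every row tested), less than Dbp, Tef and Hlf. Bhlhe40 was uneven on chow, at 8.19, 8.88 and 7.49, and close together on HFD, at 7.89, 8.19 and 7.98. All 3 HFD values lay inside the chow range, and the difference was -0.17 ± 0.33 (95% interval -0.90 to 0.56, adjusted p = 0.78). Bhlhe41 was spread on both diets, with 8.66, 9.40 and 8.50 on chow, 8.30, 9.06 and 8.57 on HFD and a difference of -0.21 ± 0.35 (-0.98 to 0.57, adjusted p = 0.74). Without WT chow replicate 2, the WT array on which both were highest, both differences turned positive (0.18 and 0.07).

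**Figure D2:**
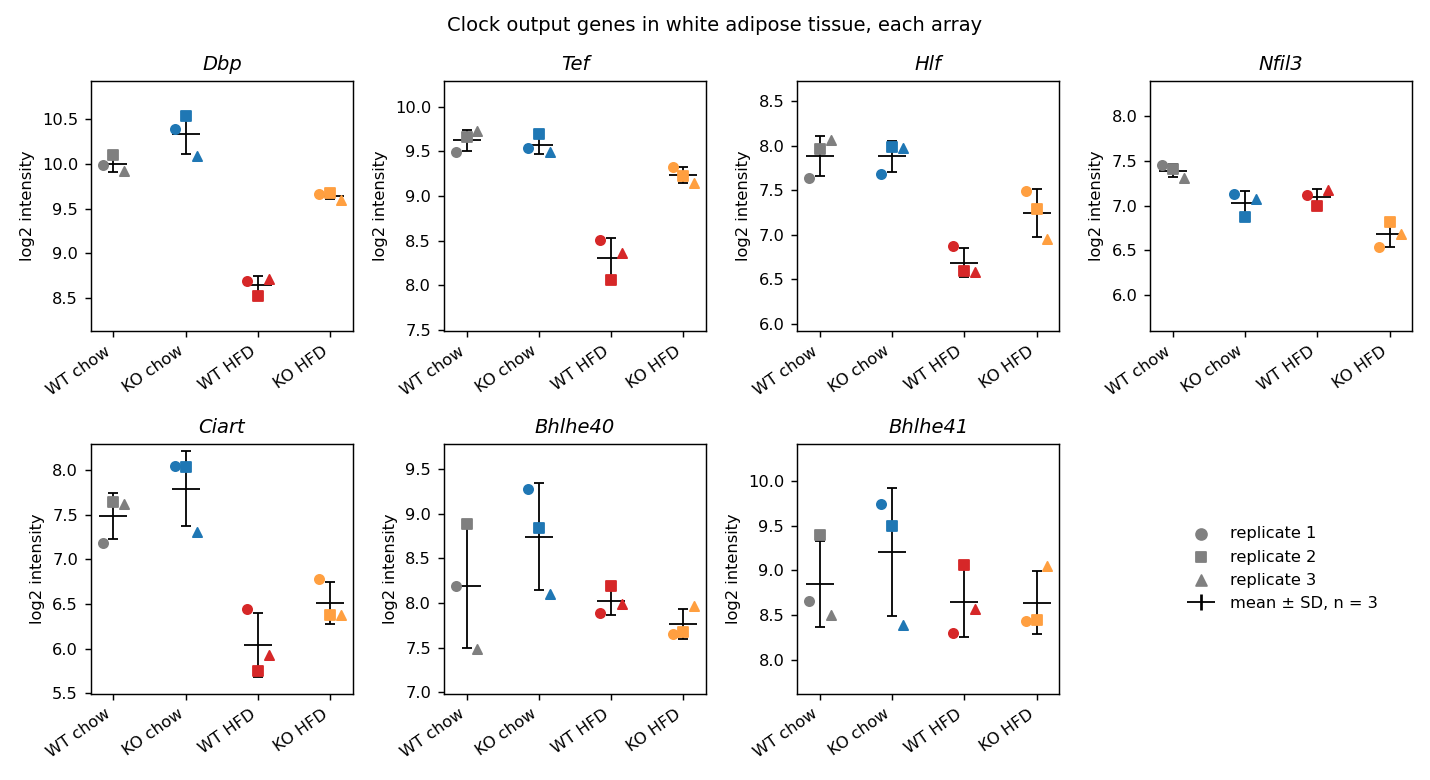
Log2 intensity (y axis) of each member on each of the 12 arrays, by group (x axis); marker shapes give the replicate number, and bars the mean ± SD of 3 arrays. All panels span the same number of log2 units. WT HFD is the lowest group for Dbp, Tef, Hlf and Ciart, KO HFD is the lowest for Nfil3, and the chow arrays of Bhlhe40 and Bhlhe41 are widely spread.

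In the knockout the same diet lowered Dbp, Hlf and Ciart. Of the 7 members 3 passed, all lower, where 6.34% of all genes passed (559 higher and 705 lower, and 1160 and 532 with the arrays centred on their medians). The arrays of the 2 diets did not overlap for 6 of the 7 members, as for 28.8% of all genes. The median change of the members was -0.63, against -0.01 over all genes.

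Dbp measured 10.39, 10.54 and 10.09 in KO chow and 9.66, 9.67 and 9.60 in KO HFD. It fell by 0.69 ± 0.11 (1.62-fold, adjusted p = 0.012), with HFD arrays that differed by less than 0.1. Tef measured 9.54, 9.70 and 9.49 on chow and 9.32, 9.22 and 9.15 on HFD. The groups did not overlap, but the difference of -0.35 ± 0.11 did not pass (adjusted p = 0.096). Hlf went from 7.68, 7.99 and 7.97 to 7.49, 7.29 and 6.96, a fall of 0.63 ± 0.16 (1.55-fold, adjusted p = 0.038).

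Nfil3, at 7.13, 6.87 and 7.08 on chow and 6.53, 6.81 and 6.68 on HFD, missed the threshold (-0.35 ± 0.09, adjusted p = 0.051). Ciart measured 8.04, 8.04 and 7.31 on chow and 6.78, 6.37 and 6.37 on HFD. It fell by 1.28 ± 0.23 (2.44-fold, adjusted p = 0.017), and by 1.17 ± 0.24 on its second row (adjusted p = 0.038 with every row tested). Bhlhe40 measured 9.28, 8.84 and 8.10 on chow and 7.66, 7.68 and 7.96 on HFD, without overlap, and the difference of -0.98 ± 0.33 did not pass (95% interval -1.70 to -0.25, adjusted p = 0.11). Bhlhe41 overlapped, at 9.74, 9.50 and 8.39 against 8.43, 8.44 and 9.05 (-0.57 ± 0.35, adjusted p = 0.37).

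These calls in the knockout rest on few arrays. Without KO HFD replicate 3 none of the 7 passed (Dbp -0.67, adjusted p = 0.065; Hlf -0.49, 0.15; Ciart -1.22, 0.085). Without KO HFD replicate 2 Hlf (-0.65, 0.086) and Ciart (-1.22, 0.058) were lost, and without KO chow replicate 1 the same pair (-0.73, 0.075, and -1.16, 0.072). Hlf was also lost without KO chow replicate 2 (-0.58, 0.082) or 3 (-0.58, 0.12), with only the compared groups fitted (adjusted p = 0.064) and with every row tested (0.062). Nfil3 passed without KO chow replicate 2 (-0.43, 0.024), without dim rows (0.041) and with array weights (0.033), and Tef passed with array weights (-0.36, 0.040). Over the whole array these fits called 1509 of 19937, 1235 of 12182 and 2137 of 19937 genes.

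On the high fat diet, knockout fat held more Dbp, Tef and Hlf RNA and less Nfil3 RNA than wild-type fat. Dbp was 2.01-fold, Tef 1.90-fold and Hlf 1.47-fold higher, and Nfil3 was 1.34-fold lower. Ciart, Bhlhe40 and Bhlhe41 did not pass. That is 4 of 7 members in a comparison in which limma called 13.5% of all genes (6.65% higher, 6.85% lower). The arrays of the 2 genotypes did not overlap for the same 4 members, as for 30.9% of all genes. This comparison and the diet comparison in WT share the 3 WT HFD arrays, so their opposite signs for Dbp, Tef and Hlf are not separate observations.

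The 3 KO HFD arrays of Dbp, all between 9.60 and 9.67, lay above the highest WT HFD array, 8.71. The difference was 1.01 ± 0.11 (95% interval 0.77 to 1.24, adjusted p = 0.0032) and had rank 6 by p. For Tef the lowest KO HFD array, 9.15, stood above the highest WT HFD array, 8.50, with a difference of 0.93 ± 0.11 (0.68 to 1.18, adjusted p = 0.0038) and rank 25. The gap was narrow for Hlf, with 6.96 as the lowest KO array and 6.87 as the highest WT array, and the rise was 0.56 ± 0.16 (0.22 to 0.90, adjusted p = 0.036). Dbp and Tef kept their calls without each single array; Hlf lost it without KO HFD replicate 1 (0.44, adjusted p = 0.14), KO HFD replicate 2 (0.54, 0.091), WT HFD replicate 2 (0.52, 0.12) or WT HFD replicate 3 (0.51, 0.12), and with every row tested (0.063). In a fit of the 6 HFD arrays alone, 4 genes of the whole array passed, Dbp among them (adjusted p = 0.033), and Tef (0.054), Hlf (0.089) and Nfil3 (0.068) did not.

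Nfil3, the repressor, was lower in KO on HFD (-0.42 ± 0.09, 95% interval -0.63 to -0.22, adjusted p = 0.016). All KO arrays, at most 6.81, lay below all WT arrays, at least 7.0. The call was lost without KO HFD replicate 1 (-0.35, adjusted p = 0.068) or WT HFD replicate 3 (-0.38, 0.066). Ciart differed by 0.47 ± 0.23 (-0.04 to 0.98, adjusted p = 0.23), with WT HFD replicate 1 (6.45) inside the KO range, and by 0.15 ± 0.24 on its second row (adjusted p = 0.81). With array weights, where 7648 of 19937 genes passed, Ciart did too (0.54, adjusted p = 0.014). Bhlhe40 (-0.25 ± 0.33, adjusted p = 0.70) and Bhlhe41 (-0.00 ± 0.35, adjusted p = 0.996) had intervals of -0.98 to 0.47 and -0.78 to 0.77.

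**Figure D3:**
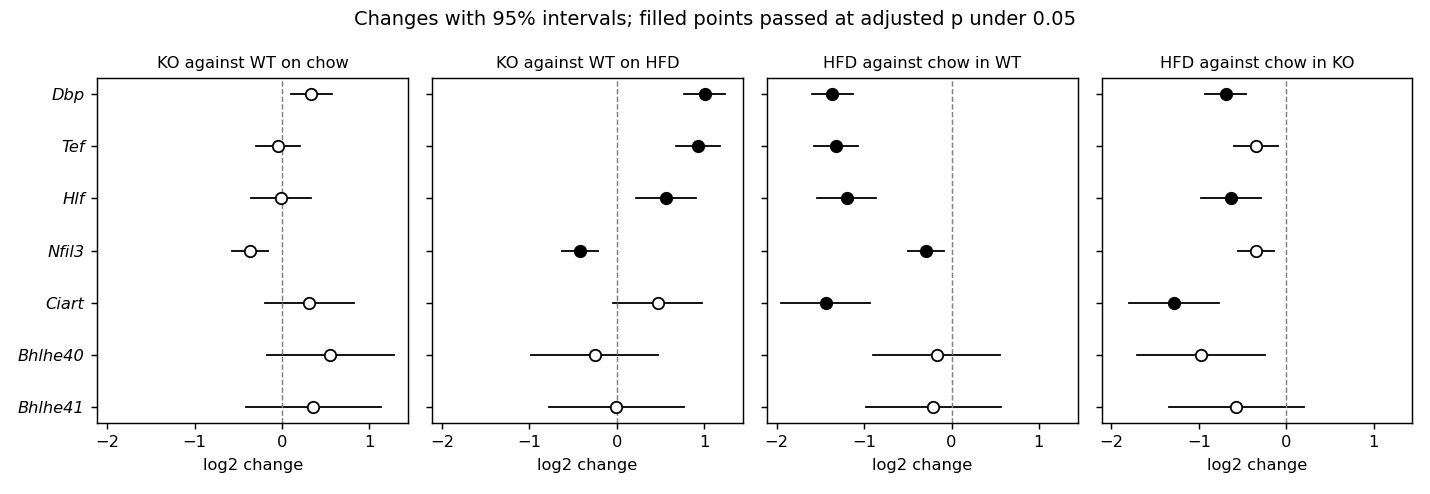
Log2 change (x axis) of each member (y axis) in the 4 comparisons, with 95% confidence intervals; filled points passed at an adjusted p under 0.05. On HFD the knockout was higher in Dbp, Tef and Hlf and lower in Nfil3, no member passed on chow, and the intervals of Bhlhe40 and Bhlhe41 are the widest.

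Some marker lists moved in this comparison too, in which limma called 6.65% of all genes higher and 6.85% lower. Of the 14 macrophage markers 10 were lower in KO HFD than in WT HFD (median -1.25), and of 10 adipocyte markers 4 were higher and 1 was lower (median 0.46). Of 5 B cell markers 2 were lower, of 8 stromal progenitor markers 2 were lower, and of 7 endothelial markers 1 was higher. Counts this small in lists of 5 to 8 genes are not read as a change of those cells. The T cell, mesothelial, muscle and male tract lists gave 0 calls. Without WT HFD replicate 1, 6 adipocyte markers were higher, and without any other single array 2 were. WT HFD replicate 2, the array with the highest macrophage level (11.2) and the lowest adipocyte level (11.6), also had the lowest Dbp, Tef and Nfil3 values of its group, though not the lowest Hlf. Its Ciart value was the lowest of the group on the row used and the highest on the second row. Without it Dbp (0.94) and Tef (0.80) still passed. The part of the marker lists in these differences was not tested.

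On chow, the 2 genotypes gave no call for any member. limma called 0 of 19937 genes (0%) in this comparison, with 1116 at an unadjusted p under 0.05, and 0 in every alternative run. Of the members, Dbp and Nfil3 had an unadjusted p under 0.05. The arrays of the 2 genotypes overlapped for all members but Nfil3, while 11.5% of all genes did not overlap. Nfil3 was lower on each KO chow array (at most 7.13) than on each WT chow array (at least 7.31), a difference of -0.37 ± 0.09 (95% interval -0.57 to -0.16, adjusted p = 0.62), set beside -0.42 on HFD. Dbp differed by 0.34 ± 0.11 (0.10 to 0.57, adjusted p = 0.74), with KO chow replicate 3 (10.09) inside the WT range. Tef (-0.05 ± 0.11) and Hlf (-0.01 ± 0.16) had intervals of -0.30 to 0.20 and -0.35 to 0.33. On HFD the intervals were 0.68 to 1.18 for Tef and 0.22 to 0.90 for Hlf, and those of Hlf on the 2 diets overlap. Whether the genotype difference depends on diet is the interaction tested below, which neither gene passed. Ciart (0.31 ± 0.23, and 0.33 ± 0.24 on its second row), Bhlhe40 (0.55 ± 0.33) and Bhlhe41 (0.36 ± 0.35) had adjusted p of 0.93 to 0.98.

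Whether diet acted differently in the 2 genotypes was tested as an interaction, the change on HFD in KO minus that in WT. None of the 7 members passed, in a test that called 1 gene of the 19937 (0.00502%) and had 3496 at an unadjusted p under 0.05. Of the members Tef, Dbp and Hlf had an unadjusted p under 0.05. Tef came nearest (0.97 ± 0.16, 95% interval 0.62 to 1.33, adjusted p = 0.055), with diet changes of -1.32 in WT and -0.35 in KO. Dbp followed (0.67 ± 0.15, 0.34 to 1.00, adjusted p = 0.089), with -1.36 and -0.69, and then Hlf (0.57 ± 0.22, 0.09 to 1.05, adjusted p = 0.22), with -1.20 and -0.63. Nfil3 (-0.05 ± 0.13, adjusted p = 0.89), Ciart (0.16 ± 0.33, 0.87, and on its second row -0.18 ± 0.34, 0.88), Bhlhe40 (-0.81 ± 0.47, 0.42) and Bhlhe41 (-0.36 ± 0.50, 0.78) were farther off. Without WT HFD replicate 1, Tef (1.07, adjusted p = 0.0022) and Dbp (0.70, 0.023) passed, as they did with array weights (0.86, 0.0039, and 0.59, 0.0099), and Tef passed without dim rows (0.043). Calls rose over the whole array in these fits, to 2060 and 2819 of 19937 genes and 75 of 12182.

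The 4 groups fell into 4 different orders of their means. For Tef and Hlf both chow groups came first, with means that differed by less than 1 SD (9.62 and 9.58, and 7.89 and 7.88), then KO HFD (9.23 and 7.25) and, without overlap, WT HFD (8.31 and 6.69). Dbp and Ciart had KO chow first (10.34 and 7.79) and WT chow second (10.003 and 7.48), with arrays that overlapped, then KO HFD (9.64 and 6.51) and WT HFD (8.64 and 6.04); the last 2 did not overlap for Dbp, and for Ciart they overlapped on the row used and not on the second row. Nfil3 alone had WT chow first (7.39), then WT HFD and KO chow, which overlapped (7.10 and 7.02), and KO HFD last (6.68). For Bhlhe40 and Bhlhe41 the order was KO chow, WT chow, WT HFD and KO HFD, and every pair of neighbours overlapped.

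Within the chow groups, Bhlhe40 and Bhlhe41 varied most. The SD of 3 chow arrays was 0.70 in WT and 0.60 in KO for Bhlhe40 and 0.48 and 0.72 for Bhlhe41, and for Tef it was 0.12 and 0.11. WT chow replicate 2 was the highest of its group for Bhlhe40, Bhlhe41, Dbp and Ciart, and KO chow replicate 3 the lowest of its group for the same 4 genes. KO chow replicate 3 was also the lowest for Tef (9.49). On WT chow, however, Tef and Hlf were highest in replicate 3 and Nfil3 in replicate 1.

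Profiles of the members over the 12 arrays, each centred on its mean, were compared by their root mean square difference, where a small value is a like profile. Tef and Hlf were closest (0.19), then Dbp and Tef (0.20) and Bhlhe40 and Bhlhe41 (0.24), the other values ranging up to 0.72 for Nfil3 and Ciart. All pairs share the same arrays. By this measure the genes outside the 7 most like Tef were Gys1, the muscle form of glycogen synthase (0.14), Met, the receptor of hepatocyte growth factor (0.15), and Phyhd1 (0.15). Most like Dbp were Nat8l, which makes N-acetylaspartate (0.18), Pard6g (0.22) and the vitamin transporter Slc5a6 (0.22). Hlf was matched by Oplah, the 5-oxoprolinase (0.11), Ralgapa2 (0.16) and Il17rb (0.17), and Ciart by Tmem53 (0.22), Mfsd4b1 (0.29) and the mitochondrial glycerol phosphate dehydrogenase Gpd2 (0.29). The nearest to Bhlhe40 was the phosphatase Dusp4 (0.24), then Zbbx (0.31) and Cyp2d26 (0.32), and the nearest to Bhlhe41 were Rprl2 (0.30), Zfand4 (0.32) and Rprl1 (0.32). Nfil3 varied too little (SD 0.28) for the rule used.

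Genes of the clock's core loop changed too. Of 14 listed genes 12 were measured, and in WT the diet raised 2 and lowered 7, with a median of -0.40. Of all genes, limma called 11.8% higher and 12.3% lower there. Arntl, the E-box activator, rose from 6.76, 6.46 and 6.04 to 7.61, 7.83 and 7.41 (1.20 ± 0.19, adjusted p = 0.0020), and its partner Clock rose by 0.43 ± 0.10 (adjusted p = 0.0091). The repressor Per3 fell from 8.68, 8.56 and 8.93 to 6.96, 6.89 and 7.15, by 1.72 ± 0.16 (adjusted p = 0.00042), Per2 by 1.13 ± 0.12 and Per1 by 0.71 ± 0.17. Cry1, Cry2, the nuclear receptor Nr1d2, which represses Arntl, and Rora, which activates it, fell by 0.32 to 0.62. In KO, where 6.34% of all genes passed, diet changes passed for Clock (0.41 ± 0.10, adjusted p = 0.035) and Rora (-0.40 ± 0.07, adjusted p = 0.018). The call of Clock was absent with quantile normalization, and no core gene passed without KO chow replicate 1, KO HFD replicate 2 or KO HFD replicate 3.

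Between the genotypes on HFD, 4 core genes were higher in KO and 1 was lower (median 0.30). Of all genes, 6.65% were called higher and 6.85% lower in this comparison. Per3 was higher by 1.13 ± 0.16 (adjusted p = 0.0045), Per2 by 0.72 ± 0.12 (0.0067), Nr1d2 by 0.56 ± 0.09 (0.0059) and Cry2 by 0.50 ± 0.12 (0.022). Arntl was lower in KO (-1.19 ± 0.19, adjusted p = 0.0059), at 6.37, 6.56 and 6.35. The 3 WT HFD arrays thus held the 3 highest Arntl values of the 12 arrays and the 3 lowest of Dbp, Tef, Hlf, Per2 and Per3. Without single arrays 3 to 6 core genes were higher and 1 was lower. Per1 (0.51 ± 0.17, adjusted p = 0.065), Nr1d1 (0.76 ± 0.26, 0.080), Clock, Arntl2, Rora, Rorb and Cry1 did not pass. On chow none of the 12 passed, and none did in the interaction, where Per3 (1.22 ± 0.23, adjusted p = 0.066) and Per2 (0.91 ± 0.17, 0.066) came nearest.

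**Figure D4:**
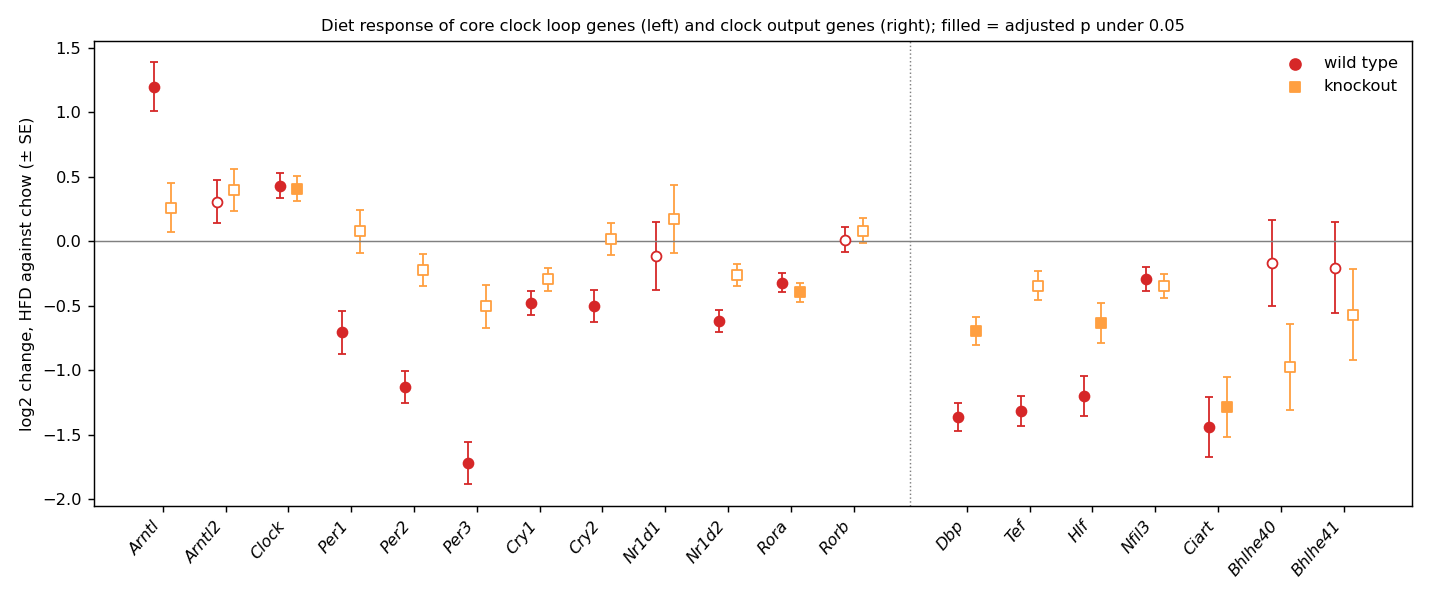
Log2 change on HFD against chow (y axis, ± SE) of 12 core clock loop genes and the 7 clock output genes, in wild type (circles) and knockout (squares); filled symbols passed at an adjusted p under 0.05. In wild type Arntl rose by 1.20 and Per3 fell by 1.72, and in the knockout the values of Arntl (0.26) and Per3 (-0.51) did not pass.

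Genes known as clock-controlled or as targets of the PAR bZIP proteins did not move one way. Of 10 measured, 1 was higher and 1 lower in KO on HFD, with a median of 0.01. Of all genes, limma called 6.65% higher and 6.85% lower. The dimmest of the 10 averaged 4.67 to 4.68 in the 4 groups, below every array median (5.78 to 5.92), and it counts in the median change. Gys2, the liver form of glycogen synthase, was lower (-2.03 ± 0.46, adjusted p = 0.016), and Pnpla2, the lipase that starts triglyceride breakdown, was higher by 0.44 ± 0.11 (adjusted p = 0.023). Neither call was made without KO HFD replicate 1, KO HFD replicate 3, WT HFD replicate 2 or WT HFD replicate 3, and 2 genes were higher and 2 lower without WT HFD replicate 1. Noct, a clock-controlled phosphatase, differed by -0.46 ± 0.14 (adjusted p = 0.051) and the nuclear receptor Ppara by 0.46 ± 0.16 (0.090). In WT the diet raised 1 of the 10, Noct (0.61 ± 0.14, adjusted p = 0.0092), and lowered 5 (median -0.33; 2 and 3 with the arrays centred on their medians), among them Ppara (-0.76 ± 0.16) and Pnpla2 (-0.36 ± 0.11). Without single arrays 2 to 4 were lower, with 2 when WT chow replicate 1, WT chow replicate 3 or WT HFD replicate 3 was left out, and 3 when WT chow replicate 2 or WT HFD replicate 2 was. In KO none of them passed, and none did in the interaction, except 1 higher and 1 lower without WT HFD replicate 1. The diet comparison called 24.1% of all genes in WT and 6.34% in KO. The kinases and ubiquitin ligases that act on PER and CRY gave 0 calls of 8 between the genotypes on HFD, the smallest p being that of the casein kinase Csnk1e (0.19, adjusted p = 0.065). With quantile normalization 1 of them was higher, and without WT HFD replicate 1, 1 was lower. With the diet 3 of the 8 fell in WT: the ubiquitin ligase subunits Btrc (-0.41 ± 0.09, adjusted p = 0.0084) and Fbxl21 (-0.31 ± 0.09, 0.028), and Usp2, a deubiquitinase that was named after its values were seen (-1.95 ± 0.18, 0.00037). Median centring gave 1 higher and 2 lower there. In KO only Usp2 fell among the 8 (-1.61 ± 0.18, adjusted p = 0.0033).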

How the data were processed

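Arrays were processed with affy per the submitters' processing notes (version, background correction and normalization: not given in the sources used here). As deposited by the authors, 1 table of 34760 rows and 12 arrays gives values of 2.10 to 14.2 on a log2 scale (base inferred from the range), with array medians of 5.78 to 5.92. It holds no detection calls, so dim rows cannot be told from background, and the number of arrays limits the precision. Rows were named from the platform annotation: 21640 had 1 symbol, 1321 several and 11799 none, which left 19937 genes at 1 row each (highest mean). Values were used as deposited. limma 3.58.1 (R 4.3.3) fitted a mean for each of the 4 groups to all 12 arrays (8 residual degrees of freedom), two-sided, with Benjamini-Hochberg adjustment over all genes and a threshold of 0.05. The fit was tested on simulated data. Counts of arrays that do not overlap compare the lowest of one group with the highest of the other. Alternatives were other fits, scalings, filters and row choices, and leaving out each array. Motifs were searched with Python 3.11.15 in RefSeq promoters of GRCm38.p6.

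The 7 genes and the lists were chosen with earlier results of these data known. Named are the 7, all core loop genes, Ahnak, and of each other list the 4 with smallest p in KO against WT on HFD. Also named are the 3 genes most like each member whose SD over the arrays is at least 0.3, among names not passed over. Usp2 was named outside these rules, after its values were seen.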

Additional observations from a re-analysis of the deposited data

How the results depend on the processing

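Of 560 values of the 7 members under the alternatives, 501 kept their direction and their side of the threshold. Of these, 99 were on chow and 132 in the interaction, where no member passed as reported and so no call could be lost. Calls were lost in 11 of 105 values in KO against WT on HFD, 10 of 105 in HFD against chow in WT and 12 of 105 in HFD against chow in KO. The number of members called in KO against WT on HFD, 4 as reported, was 1 with only the compared groups and 2 to 4 without single arrays; in HFD against chow in KO, 3 as reported, it was 5 with array weights and 0 to 3 without single arrays; in the interaction, 0 as reported, it was 2 with array weights, 1 without dim rows and 0 to 2 without single arrays. On chow it was 0 throughout, and in HFD against chow in WT 4 or 5. Genes called over the array numbered 2691 in KO against WT on HFD, but 7648 with array weights, 4 with only the compared groups and 904 to 3930 without single arrays; 4802 in HFD against chow in WT, but 9985 with array weights and 3072 to 5285 without single arrays; 1264 in HFD against chow in KO, but 2137 with array weights, 837 with every row tested, 585 with only the compared groups, 740 with a replicate block and 62 to 1509 without single arrays; and 1 in the interaction, but 2819 with array weights, 3 with every row tested, 75 without dim rows, 0 with a replicate block and 0 to 2060 without single arrays. The cause of these shifts was not tested.

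Signs turned only for values that had not passed. On chow, Hlf was 0.06 with array weights, 0.0018 with median centring and -0.134 to 0.0929 without single arrays, and Tef -0.114 to 0.0036. On HFD, Bhlhe41 was 0.15 with array weights, 0.0087 with quantile normalization and -0.207 to 0.206 without single arrays. In WT, the diet difference without single arrays was -0.52 to 0.18 for Bhlhe40 and -0.417 to 0.0672 for Bhlhe41. In the interaction, Nfil3 was -0.134 to 0.0168 and Ciart -0.0888 to 0.359 without single arrays, and Ciart -0.0130 with the mean of a gene's rows.

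Whether the replicate numbers pair the arrays could not be told. Deviations of same-numbered arrays from their group means correlated at -0.41 to 0.38, over 0.1 in 4 of 18 pairs. Arrays with different numbers were not compared in this way. With a replicate block 3 members passed in KO against WT on HFD (Hlf lost, adjusted p = 0.065), 4 in HFD against chow in WT (Nfil3 lost, 0.072), 2 in HFD against chow in KO (Hlf lost, 0.072), and none on chow or in the interaction. The D-box search gave 2 promoters with 1 mismatch allowed and 0 without.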

Other observations

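Related families and hormone-responsive genes, from lists written with earlier results of these data known, are given as values only. In the C/EBP family, bZIP factors that can share partners and sites with the PAR bZIP proteins, 1 of 6 members passed between the genotypes on HFD: Cebpa, a driver of adipocyte differentiation, was higher in KO by 0.69 ± 0.13 (limma adjusted p = 0.0082). Of all genes 13.5% passed there. Cebpa fell by 0.62 ± 0.13 with the diet in WT (adjusted p = 0.0060) and differed by -0.03 ± 0.13 in KO (adjusted p = 0.93). None of the 6 passed in the interaction, but 2 did without WT HFD replicate 1 and 1 without WT chow replicate 2. The higher Cebpa in KO on HFD and its fall in WT share the WT HFD arrays. Cebpd, an early adipogenic factor, fell by 1.03 ± 0.24 with the diet in WT (adjusted p = 0.0097), and its differences between genotypes did not pass on HFD (0.38 ± 0.24, adjusted p = 0.36) or on chow (-0.87 ± 0.24, adjusted p = 0.68). Cebpe (0.17, adjusted p = 0.23) and Cebpg (0.14, adjusted p = 0.33) did not pass on HFD.

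The relatives of BHLHE40 and BHLHE41 with an Orange domain gave 0 calls of 6 in each of the 5 tests; Hey2, a Notch target, came nearest on HFD (0.30 ± 0.09, adjusted p = 0.050). With quantile normalization 1 of the 6 passed there, and with median centring 1 passed in the diet comparison in WT.

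Of 11 genes that respond to glucocorticoids or fasting, 3 were higher in KO on HFD: Txnip, a thioredoxin inhibitor (0.41 ± 0.08, adjusted p = 0.0098), Foxo1, a transcription factor held back by insulin (0.63 ± 0.19, 0.047), and Zbtb16, a glucocorticoid target (1.17 ± 0.35, 0.048). Klf9 did not pass there (0.42 ± 0.17, 0.14). Of all genes, limma called 6.65% higher and 6.85% lower in this comparison. The count was 2 with quantile normalization, 4 without WT HFD replicate 1 and 1 without each other HFD array. With the diet 7 of the 11 fell in WT and 1 rose, and in KO 1 rose and none fell (in WT 5 fell with the arrays centred on their medians, and in KO 3 rose). Of all genes, 12.3% were called lower and 11.8% higher in WT, and 3.54% lower and 2.8% higher in KO. In the interaction none of the 11 passed, and 6 did without WT HFD replicate 1. Without single arrays 4 to 7 fell in WT, with 4 when WT chow replicate 3 or WT HFD replicate 3 was left out, and in KO none rose without KO chow replicate 1, KO HFD replicate 2 or KO HFD replicate 3. On chow all 11 were lower on average in KO than in WT, with a median of -0.54 against 0.01 over all genes, and none passed. The differences of Txnip, Foxo1, Zbtb16 and Klf9 on chow were -0.19, -0.38, -0.39 and -0.15.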
